A study of Mus musculus with 12 samples.

Results

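Within a differentiation series of 12 RNA sequencing libraries, the 2 libraries of the interferon arm taken at day 21 were compared with the 2 taken at day 0. These 4 libraries were chosen by their labels alone, and the comparison covers every gene kept after a filter on low counts, 16259 of the 55291 symbols in the table. The cells were MC3T3-E1, a mouse preosteoblast line (genotype WT) grown with 10% fetal bovine serum, and day 0 was set 2 days after the cells became confluent. Bone differentiation then began, with mouse interferon beta (IFN) in the interferon arm at a dose that the labels give as 50 mg/L, and without it in the control arm. Each arm has 2 libraries at day 0, at day 14 and at day 21. From the labels it is not known whether the interferon arm's day 0 libraries had met IFN, what the differentiation medium held, or whether replicates are separate cultures, so each p measures only the spread between these libraries, which may be technical. The day 21 against day 0 difference holds differentiation, time in culture and IFN together, and within the interferon arm these cannot be told apart.

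Type I interferons bind a receptor made of IFNAR1 and IFNAR2, whose kinases JAK1 and TYK2 activate STAT factors. Together with IRF9 these bind interferon-stimulated response elements and switch on antiviral effectors, MHC class I antigen presentation and the factor IRF7, which amplifies the response. Differentiating osteoblasts, in turn, are known for a collagen I matrix and for the proteins that mineralize it, under transcription factors such as RUNX2 and SP7.

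Library totals in the series ran from 29772425 to 38908453 counts. The interferon libraries were close replicates: the median SD of log2 CPM (counts scaled to a common library total) between the 2 libraries of a group was 0.0786 at day 0, 0.0801 at day 14 and 0.102 at day 21, and the biological coefficient of variation was 0.0635 over the 6 interferon libraries against 0.38 over the 6 control libraries. Control day 0 replicate 1 and control day 21 replicate 2 stood apart from their partners, as the control values below show. A gene is called here when its edgeR quasi-likelihood test, with the spread taken from the 6 interferon libraries, gave an adjusted p below 0.05 (Benjamini-Hochberg, all genes in the fit). "Rose" and "fell" are used of called genes only, fold changes are log2 of day 21 over day 0 with their standard error (SE), and CPM values are listed for replicate 1 and replicate 2. Each SE was worked back from the edgeR test, as the absolute change divided by the square root of its F statistic.

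Between day 0 and day 21, 8567 of 16259 genes (52.7%) were called, 4499 higher (27.7%) and 4068 lower (25%). With a change of at least 2-fold required as well, 1456 genes rose (8.96%) and 1235 fell (7.6%). The 2 libraries of one day lay on the same side of both libraries of the other for 12145 genes (74.7%), among them 8556 of the called ones. So with replicates this close a call alone is common, and each list below is read against these shares. The median change over all genes was 0.014.

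**Figure D1:**
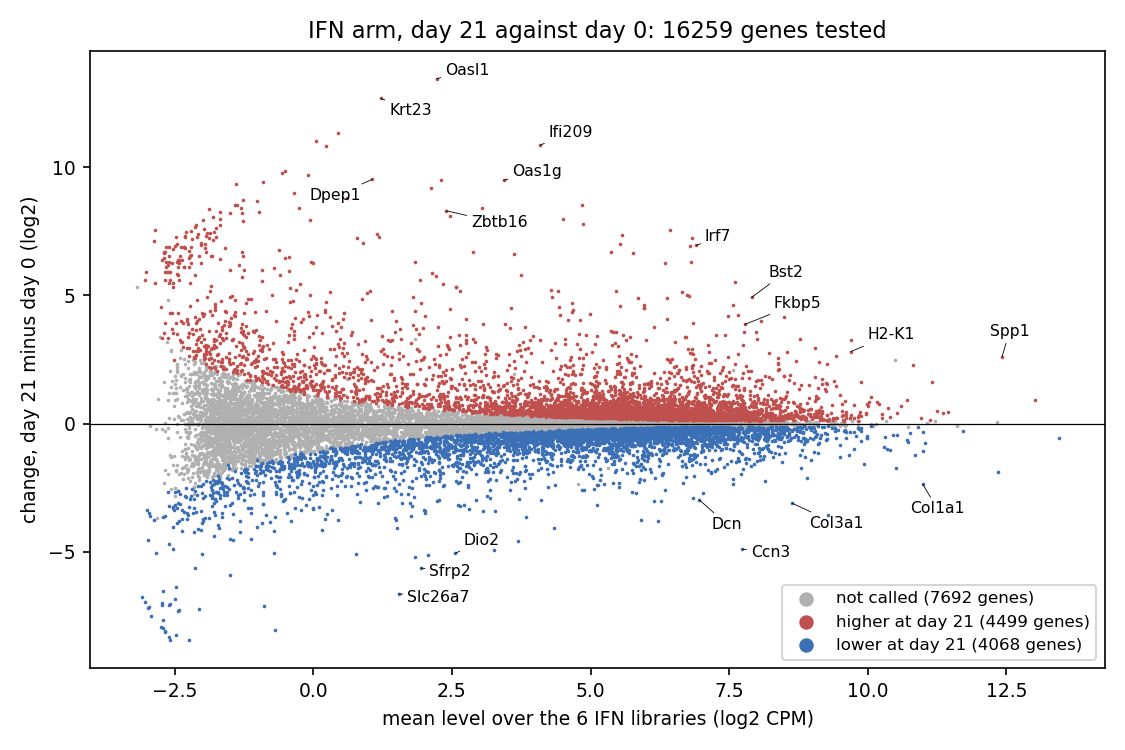
Change from day 0 to day 21 (log2) of each of the 16259 genes against its mean level over the 6 interferon libraries (log2 CPM), with 4499 genes called higher in red, 4068 called lower in blue and the others in grey. Oasl1, Krt23 and Ifi209 are among the largest rises, and Ccn3, Col3a1 and Col1a1 stand out among well-expressed genes that fell; values at the far left rest on few counts.

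The response element that the STAT and IRF factors recognise was looked for by its core letters, GAAANNGAAA on either strand (TTTCNNTTTC on the other), in RefSeq promoter windows of 300 bases, from 250 before to 50 after each start site, on GRCm38.p6. A gene with several start sites counts when any of its windows holds the letters. A window was at hand for 11208 of the 16259 genes. The letters were in 3.99% of all 27025 genes with a window and in 3.75% of those tested. They were in 9.08% of the genes that rose at least 2-fold, 16.1% of those that rose at least 8-fold and 3.26% of those that fell at least 2-fold. On the list of interferon-stimulated genes described next, 27 of 48 members with a window held them (56.2%), and among genes that rose at least 2-fold but are not on that list the share was 6.78%. A match is a description of the letters and no evidence of binding. The stretches below were picked among the genes described next because they hold the letters, to show where the match lies. No window of Oasl1, Irf7, Ifi209, H2-K1, H2-D1 or Slfn2 held them, and Saa3, which fell (-1.96 ± 0.13), had a match. The matched letters are in capitals, all upstream of the start site and written 5′ to 3′ along the gene's own strand: Ifi213 (chr1:173599311-173599370), Ifi214 (chr1:173536002-173536061) and Mndal (chr1:173880189-173880248, before the start site that RefSeq gives it), all on the minus strand of 1 locus; the antiviral genes Oas1g (chr5:120887614-120887656, minus) and Bst2 (chr8:71537568-71537627, minus); and the antigen presentation genes H2-T22 (chr17:36042899-36042958, minus) and B2m (chr2:122147523-122147582, plus).
Ifi213: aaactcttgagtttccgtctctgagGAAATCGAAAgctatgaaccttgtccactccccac
Ifi214: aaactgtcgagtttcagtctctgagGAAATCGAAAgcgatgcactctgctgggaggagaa
Mndal: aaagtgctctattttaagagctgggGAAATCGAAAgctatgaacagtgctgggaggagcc
Oas1g: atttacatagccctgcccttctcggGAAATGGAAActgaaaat
Bst2: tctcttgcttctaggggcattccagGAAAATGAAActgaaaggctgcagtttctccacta
H2-T22: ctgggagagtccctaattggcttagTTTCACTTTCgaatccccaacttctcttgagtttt
B2m: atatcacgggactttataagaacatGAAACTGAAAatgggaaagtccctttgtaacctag
The 3 genes of the chromosome 1 locus share all 10 capitals, and H2-T22 carries the element in the opposite orientation to the others shown.

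Interferon-stimulated genes had the highest median change of the 35 lists described. Of 63 members tested, 62 rose, 58 of them at least 2-fold, and 1 fell, where 27.7% of all genes rose and 25% fell. Their median change was 3.39, against 0.014 for all genes. The median level of the list was 16.2 and 12.2 CPM in the 2 day 0 libraries, 260.8 and 267.7 CPM at day 14, and 162 and 161.9 CPM at day 21. The highest point of the 3 days was thus day 14, when the median change from the same day 0 libraries was 4.03 and 28.1% of all genes were called higher than at day 0, and 47 members were called lower at day 21 than at day 14, where 13.5% of all genes were, with 2 called higher. At day 0 replicate 1 lay above replicate 2 for 43 of the 63 members and by over 1.5 times for 11 of them, against 8.19% of all genes.

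Oasl1, an oligoadenylate synthetase-like antiviral gene (mm10 chromosome 5, 114923240 to 114937915), had 0 counts in both day 0 libraries and 40.7 and 42.7 CPM at day 21. Set against a floor of 3 counts over the day 0 group, its 2837 counts at day 21 were at least 911-fold higher (edgeR adjusted p = 1.12e-24). Bst2, which codes for tetherin, a membrane protein that holds back budding virus (chromosome 8, 71534255 to 71537456), went from 22.7 and 24.1 CPM to 702 and 715 CPM. Both day 21 libraries lay far above both day 0 libraries, a change of 4.92 ± 0.06 (SE), or 30.3-fold, with an edgeR adjusted p of 5.37e-33. Irf7 (chromosome 7, 141262706 to 141266481) stood at 5.62 and 3.17 CPM at day 0, at 739.8 and 765 CPM at day 14 and at 519 and 558 CPM at day 21. Its change from day 0 to day 21 was 6.95 ± 0.23 (edgeR adjusted p = 7.31e-05), and its day 0 replicates were further apart than those of Bst2.

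The other members with the smallest p were Slfn2, a regulator of immune cell quiescence (8.22 and 8.56 to 283 and 313 CPM, 5.15 ± 0.07), Zbp1, a sensor of Z-form nucleic acid (5.10 and 4.92 to 144 and 151 CPM, 4.88 ± 0.07), and Ifit3b, an inhibitor of viral RNA translation (10.6 and 9.41 to 169.9 and 169 CPM, 4.09 ± 0.07). All 3 were higher still at day 14, where Ifit3b was at 333 and 354 CPM. Ifit3b has a close copy, Ifit3, whose reads the counting may have split. The 1 member that fell was Ifi27, a mitochondrial protein of the family: it stood at 74.0 and 68.1 CPM at day 0, 22.7 and 19.8 CPM at day 14 and 36.7 and 32.3 CPM at day 21. Its change of -1.04 ± 0.09 (edgeR adjusted p = 1.3e-11) ran against every other member of the list.

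**Figure D2:**
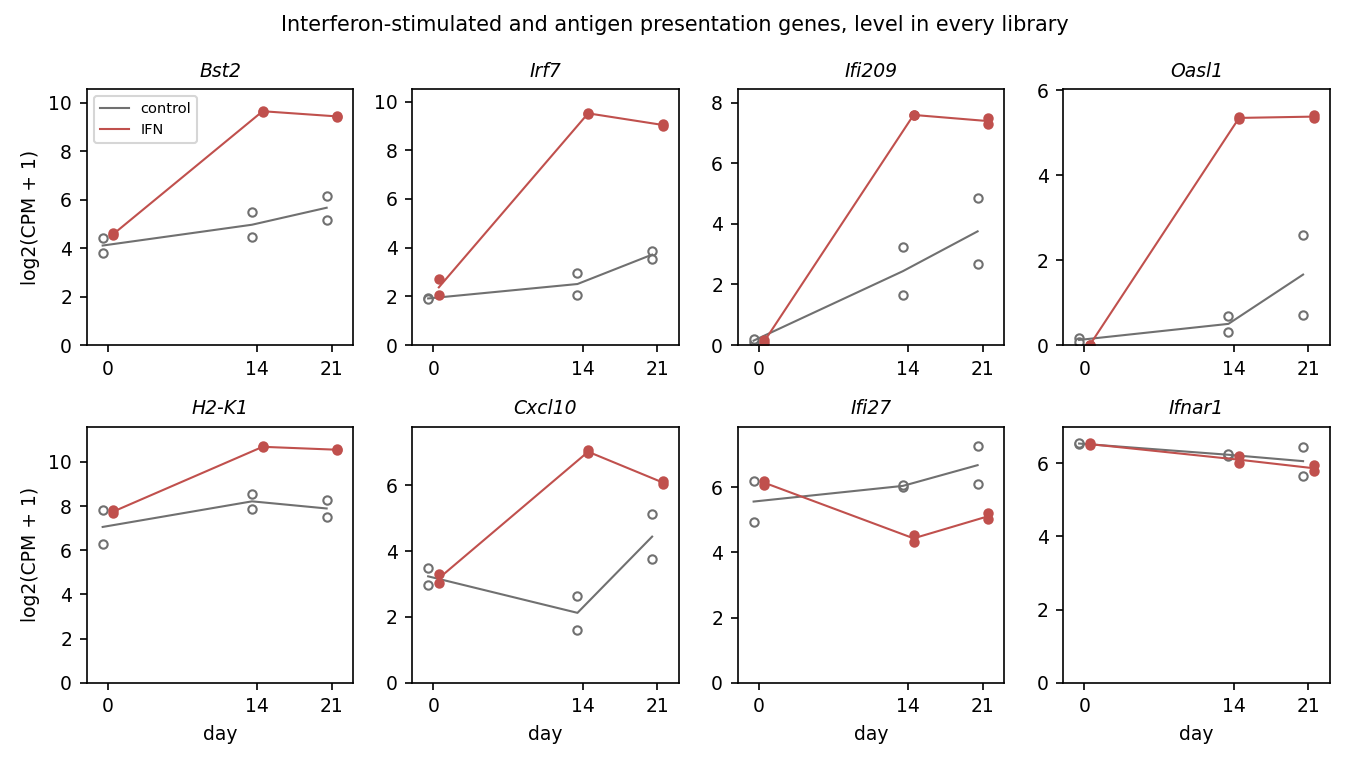
Level in every library, as log2(CPM + 1), at days 0, 14 and 21 for 8 genes, with interferon libraries as filled red points, control libraries as open grey points and lines through the group means. Bst2, Irf7, Ifi209, Oasl1, H2-K1 and Cxcl10 were far above their day 0 level at days 14 and 21 in the interferon arm, Ifi27 was below its day 0 level, and Ifnar1 moved little.

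A run of neighbouring genes on chromosome 1 rose as a block. The Ifi200 family, whose proteins bind DNA and include innate sensors, lies between 173350879 and 174031810 of mm10. All 15 genes tested in that stretch, 12 of them protein coding, rose at least 2-fold. Ifi209 (173630917 to 173647928) went from 0.124 and 0.0565 CPM to 161 and 183 CPM, a change of 10.86 ± 0.14 with an edgeR adjusted p of 1.69e-30. Ifi213 (173566283 to 173599274) went from 1.14 and 0.0565 CPM to 207 and 221 CPM (8.53 ± 0.44, edgeR adjusted p = 0.000646), with day 0 replicates that differed widely. Ifi214 (173519717 to 173535957) had 2 counts at day 0 and 1322 at day 21, a ratio of 637 with a 95% interval from 176 to 5264 for counting error only. Mndal (173849126 to 173942491) started higher, at 24.6 and 22.4 CPM, and reached 444 and 415 CPM (4.19 ± 0.06).

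Aim2, an inflammasome sensor and the first gene of the stretch, changed least within it (1.25 ± 0.07), and Ifi205, the last, by 6.63 ± 0.15. Of the 3 nearest tested genes before the locus, Cfap45 rose (2.98 ± 0.80) and Slamf8 and Dusp23 were not called. The family members are close copies of each other, and the annotation and strand setting of the counting are not given in the sources used here, so reads may have been split or lost among them; Oas1g and the MHC genes below share this limit.

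Antigen presentation rose with the antiviral genes. Of 19 MHC class I and antigen processing genes tested, 15 rose, 11 at least 2-fold, and 0 fell, with a median of 1.78. The classical heavy chain gene H2-K1 (chromosome 17, 33996017 to 34000347) went from 211 and 228 CPM to 1520.0 and 1551 CPM, a 7-fold rise (2.81 ± 0.05, edgeR adjusted p = 1.89e-28). H2-D1, the other classical heavy chain gene, went from 600.0 and 623 to 3011 and 2998 CPM (2.3 ± 0.04). The nonclassical gene H2-T23 changed by 2.34 ± 0.05 and H2-T22 by 2.35 ± 0.05. B2m, which codes for the shared light chain, went from 1066 and 1089 CPM to 3297 and 3404 CPM (1.64 ± 0.04). Unlike the median interferon-stimulated gene, B2m held its day 14 level: its change between day 14 and day 21 was 0.00 (edgeR adjusted p = 0.967), whereas 14 members of the list were called lower at day 21 than at day 14.

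The receptor and its kinases changed far less than their targets. Of 22 interferon receptor and JAK-STAT genes tested, 4 rose and 7 fell, where 27.7% of all genes rose and 25% fell, with a list median of -0.08. The largest change on the list was that of the phosphatase gene Ptpn6, which fell (-2.22, edgeR adjusted p = 0.000701). Ifnar1 (chromosome 16, 91485238 to 91507441) fell from 91.0 and 95 CPM to 62.4 and 55.2 CPM (-0.66 ± 0.07, edgeR adjusted p = 5.56e-09). Ifnar2, beside it on the chromosome, was not called, at 37.3 and 41.4 CPM against 35.8 and 34.7 CPM (-0.16 ± 0.09, edgeR adjusted p = 0.135), though its groups did not overlap and it passed with library size alone as the scaling (0.0473). The interferon regulatory factors Irf5 (1.39 ± 0.10) and Irf2 (1.05 ± 0.09) rose over 2-fold and the receptor kinase Tyk2 by 0.37 ± 0.07. Among those that fell were the cytokine signalling suppressor Socs2 (-0.83 ± 0.08), the growth factor signal transducer Stat5a (-0.53 ± 0.09) and the interferon gamma receptor chain Ifngr2 (-0.32 ± 0.07).

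Of the 12 largest rises among genes with a mean log2 CPM of 1 or more, 10 lay outside the interferon-stimulated list, which holds Oasl1 and Oas1g; 3 of the 10, Ifi209, Ifi213 and Ifi214, lie in the locus on chromosome 1. Krt23, a type I keratin (chromosome 11, 99477974 to 99493137), had 0 counts at day 0 and 27.0 and 22.1 CPM at day 21, at least 537-fold higher against the same floor. Acsbg1, an acyl-CoA synthetase, went from 0.185 and 0 CPM to 57.6 and 75.4 CPM, and the dipeptidase gene Dpep1 from 1 count to 928, a ratio of 894 with a 95% interval of 160 to 35353. Lgr6, a receptor for R-spondins that marks several progenitor cells, went from 0.525 and 0.933 CPM to 183 and 191 CPM (7.98 ± 0.16, edgeR adjusted p = 6.02e-14). Ccbe1, a secreted lymphangiogenic factor, changed by 8.42 ± 0.18, the transcriptional repressor Zbtb16 by 8.30 ± 0.24 and Tarm1, a receptor of myeloid cells, by 8.08 ± 0.22. Krt23, Acsbg1, Lgr6, Ccbe1 and Zbtb16 were all called higher again between day 14 and day 21, when the median of the interferon-stimulated list was lower.

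The collagens fell together. Of 24 fibril and fibril-associated collagen genes tested, 17 fell, 13 of them at least 2-fold, and 5 rose, none by 2-fold, with a median of -1.31. Col1a1, the main collagen chain of bone (chromosome 11, 94936224 to 94953042), stood at 6033 and 6476 CPM at day 0, 1119 and 1116 CPM at day 14 and 1181 and 1236 CPM at day 21. The drop had taken place by day 14 and did not deepen, and the change from day 0 to day 21 was 5.18-fold (-2.37 ± 0.05, edgeR adjusted p = 2.17e-27). Its partner chain Col1a2 went from 11939 and 12213 CPM to 3208 and 3286 CPM (-1.90 ± 0.04). Col3a1, the collagen of soft and provisional matrix (chromosome 1, 45311538 to 45349706), went from 1644 and 1687 to 206 and 180.4 CPM, 8.61-fold lower (-3.11 ± 0.06), and Col5a2, which sets fibril diameter, changed by -1.73 ± 0.05. The members that rose included the basement membrane chains Col4a1 (0.77 ± 0.05) and Col4a2 (0.54 ± 0.05), the microfibril chain Col6a3 (0.43 ± 0.04) and the cartilage collagen Col2a1 (8.86 and 9.67 to 14.2 and 20 CPM, 0.89 ± 0.16).

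Small proteoglycans and other matrix proteins fell as well. On that list 18 of 25 members fell and 5 rose, with a median of -0.96. Dcn, decorin, a proteoglycan that coats collagen fibrils (chromosome 10, 97479609 to 97518143), went from 486 and 499 CPM to 61.9 and 63.2 CPM (-2.98 ± 0.06, edgeR adjusted p = 1.77e-27). Ccn3, a matricellular protein that restrains osteoblast differentiation (chromosome 15, 54745702 to 54754039), went from 1898 and 1959.8 CPM to 64.2 and 65.3 CPM, 29.8-fold lower (-4.90 ± 0.06). Its relative Ccn2, connective tissue growth factor, went the other way, from 51.0 and 58.1 to 613 and 684 CPM (3.57 ± 0.11, edgeR adjusted p = 1.5e-07). Prelp (-1.25 ± 0.05) and the elastic fibre protein Emilin1 (-0.99 ± 0.05) fell, while the large proteoglycan Vcan, versican, rose from 313 and 313 to 788 and 859 CPM (1.40 ± 0.05). The thrombospondins Thbs2 (0.85 ± 0.05) and Thbs1 (0.76 ± 0.05) also rose. Members of the list thus moved in both directions, and more of them fell.

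Genes that process collagen changed in both directions. Of 25 tested, 15 fell and 7 rose, with a median of -0.24. The collagen chaperone Serpinh1 went from 1917 and 1971 to 938 and 979 CPM (-1.02 ± 0.04), the prolyl hydroxylase subunit P4ha3 changed by -2.15 ± 0.07 and the procollagen peptidase Adamts2 by -1.33 ± 0.06. In contrast, the cross-linking enzymes Lox (622 and 644 to 1265 and 1317 CPM, 1.03 ± 0.04) and Loxl3 (1.19 ± 0.05) rose, as did the hydroxylases P4ha2 (0.62 ± 0.06) and Plod2 (0.40 ± 0.06). Among matrix proteases and their inhibitors 6 of 17 rose and 8 fell. The membrane protease Mmp16 (-2.41 ± 0.08), the aggrecanase Adamts5 (-1.98 ± 0.09), the gelatinase Mmp2 (-0.99 ± 0.05) and the inhibitor Timp2 (-1.07 ± 0.04) fell, and the metalloproteases Adam12 (1.44 ± 0.08), Adamts4 (1.10 ± 0.07) and Mmp11 (0.51 ± 0.06) and the inhibitor Timp1 (0.52 ± 0.06) rose.

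Mineralization genes rose while the collagens fell. Of 14 tested, 11 rose, each at least 2-fold, and 1 fell, with a median of 1.72; at day 14 the median against day 0 was 0.63, and 12 members were called higher at day 21 than at day 14, where 16% of all genes were. Spp1, osteopontin, a phosphoprotein of bone matrix (chromosome 5, 104435118 to 104441050), stood at 2273 and 2343 CPM at day 0, 5084 and 5126 CPM at day 14 and 13610.0 and 14369 CPM at day 21. It rose at each step, 6.06-fold in all (2.60 ± 0.04, edgeR adjusted p = 3.3e-29). Ibsp, bone sialoprotein, which binds mineral, had 2 counts at day 0 and 550 at day 21, a ratio of 265 with a 95% interval of 73 to 2193 for counting error only. Mgp, matrix Gla protein, an inhibitor of calcification, went from 299 and 300.3 to 996 and 1016 CPM (1.75 ± 0.05). The pyrophosphate exporter Ank (198 and 203 to 422 and 435 CPM, 1.10 ± 0.05) and the phosphate transporter Slc20a1 (1.68 ± 0.06) rose, and Tmem119, a membrane protein of osteoblasts, fell slightly (-0.30 ± 0.06).

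The osteocyte gene Dmp1, which codes for a matrix phosphoprotein that nucleates mineral (chromosome 5, 104202613 to 104214102), did not follow a single course. It stood at 77.8 and 84.5 CPM at day 0, 15.9 and 21.1 CPM at day 14 and 464 and 475 CPM at day 21. The dip at day 14 and the rise after it were both outside the spread of the replicates, and the change over the whole interval was 2.53 ± 0.09 (edgeR adjusted p = 5.71e-09). Of 6 osteocyte genes tested, Dmp1 among them, 3 rose and 2 fell over the interval, and 5 were called higher at day 21 than at day 14. Ptprz1, a receptor phosphatase, had 605 counts at day 0 and 2 at day 21, a ratio of 314 with a 95% interval of 86.5 to 2598, the transcription factor Irx5 changed by -1.05 ± 0.08 and the hyaluronan receptor Cd44 by 0.32 ± 0.05. Fgf23, a hormone of mature osteocytes, had 0 counts in all 4 libraries.

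Osteoblast regulators and markers were divided. Of 24 tested, 7 rose and 8 fell, with a median of 0.03. Runx2, the master regulator of the lineage (chromosome 17, 44495987 to 44814797), was not called, at 107 and 109.6 CPM at day 0 and 113 and 113 CPM at day 21 (0.06 ± 0.05, edgeR adjusted p = 0.334). Sp7, osterix, which acts after RUNX2 (chromosome 15, 102356606 to 102367182), went from 6.05 and 6.13 to 18.4 and 17.6 CPM (1.56 ± 0.14, edgeR adjusted p = 1.15e-10). Alpl, tissue-nonspecific alkaline phosphatase (chromosome 4, 137741733 to 137796384), went from 3.37 and 2.49 to 11.4 and 10.3 CPM (1.90 ± 0.20, edgeR adjusted p = 2.68e-09). Both Sp7 and Alpl were thus about 3 times their day 0 level or more, from low starting levels. Bglap, osteocalcin, the late marker of the lineage (chromosome 3, 88383501 to 88384464), was near 1 CPM on every day and was not called (0.50 ± 0.44, edgeR adjusted p = 0.362). Its close copies Bglap2 (0.18) and Bglap3 (-0.12) were not called either, and the counting may have split or lost reads among them. The stress-responsive factor Atf4 (0.60 ± 0.05) rose, and osteonectin, Sparc, from 1908 and 1959 to 916 and 1009 CPM (-1.01 ± 0.05), and the adhesion gene Cdh11 (-1.24 ± 0.05) fell.

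Sox9, a transcription factor of chondrogenesis that is named in the study's title (chromosome 11, 112782224 to 112787760), stood at 106 and 119 CPM at day 0, 195 and 186 CPM at day 14 and 328 and 289 CPM at day 21. It rose over the interval by 1.45 ± 0.06 (edgeR adjusted p = 1.18e-14) and was called higher at each step. Among 5 tested SOX factors Sox4, which acts in progenitor cells, also rose (92.9 and 89.3 to 331 and 333 CPM, 1.87 ± 0.05), and Sox11 fell (-1.36 ± 0.13). Of 18 chondrocyte genes listed, 8 passed the filter on low counts, and of these 5 rose and 0 fell, with Col9a3 and Sox5 among them. The cartilage matrix genes Acan (5 and 6 counts at day 0, 3 and 5 at day 21) and Comp (38 and 23, then 16 and 22) stayed at few counts. The Sox5 call (0.51) ended without day 0 replicate 2 (edgeR adjusted p = 0.16).

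**Figure D3:**
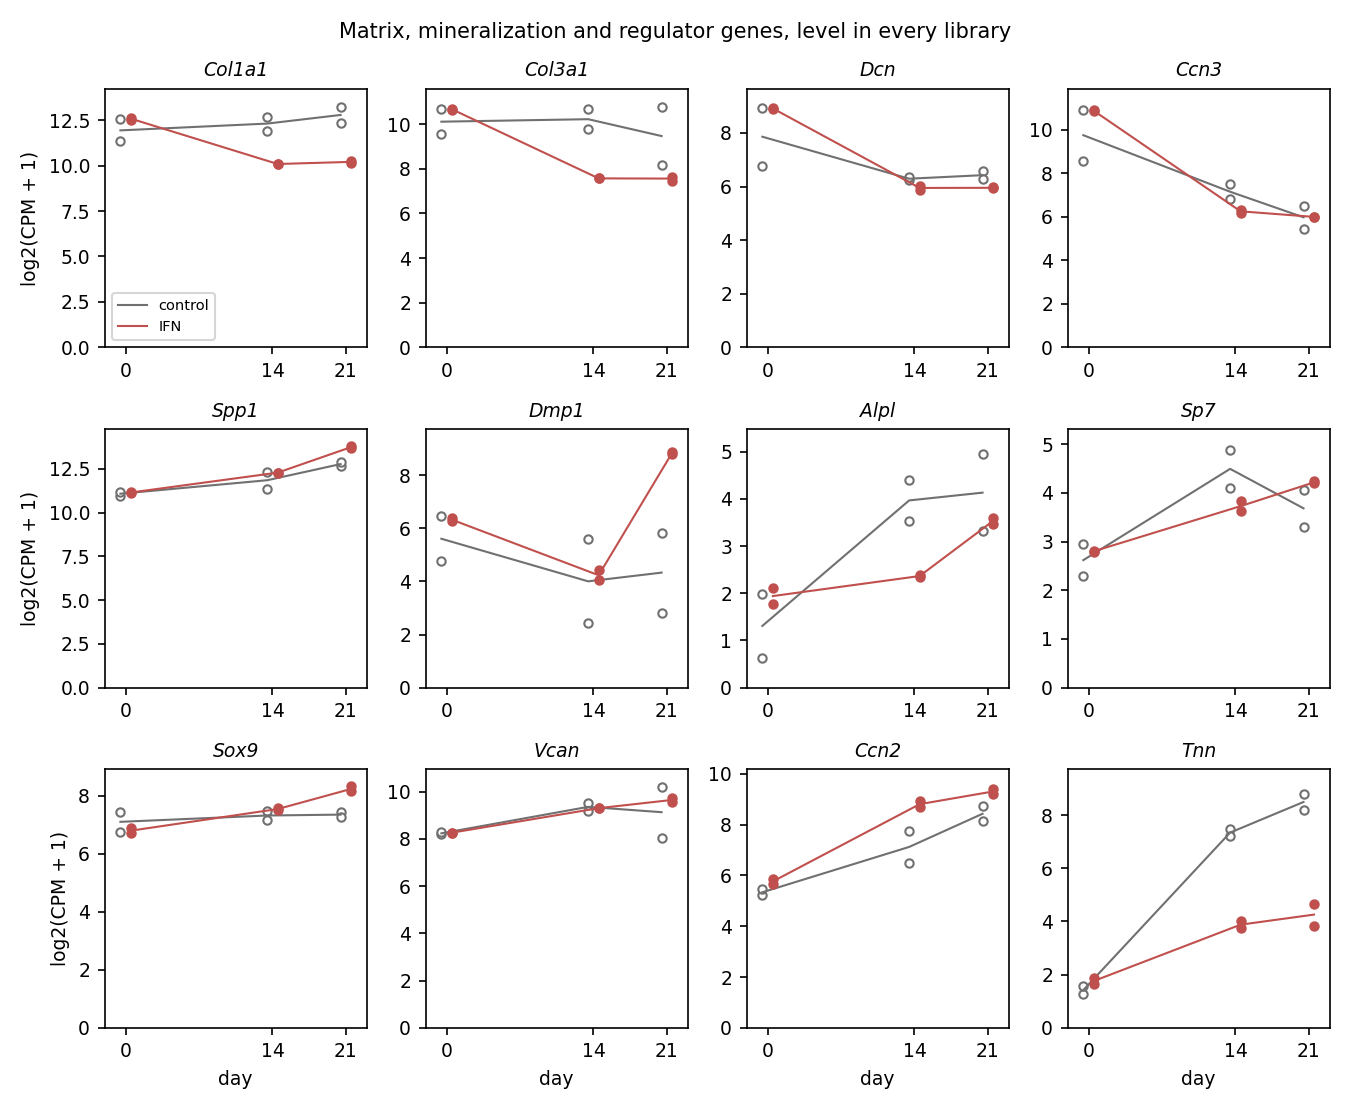
Level in every library, as log2(CPM + 1), at days 0, 14 and 21 for 12 matrix, mineralization and regulator genes, with interferon libraries as filled red points, control libraries as open grey points and lines through the group means. In the interferon arm Col1a1, Col3a1, Dcn and Ccn3 dropped by day 14 and stayed low, Spp1 and Sox9 climbed at each step and Dmp1 dipped at day 14 before its rise; control replicates lay further apart.

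The 12 largest falls were taken, like the rises, among genes with a mean log2 CPM of 1 or more; Ptprz1, above, fell further from a lower mean level, as did Lum, a small proteoglycan (-7.14 ± 0.45), named after its values were seen. Slc26a7, an anion exchanger (chromosome 4, 14502430 to 14621805), went from 63.9 and 65.8 CPM to 0.557 and 0.737 CPM, 99.8-fold lower (-6.64 ± 0.29, edgeR adjusted p = 4.22e-08). Sfrp2, a secreted Wnt antagonist (chromosome 3, 83766321 to 83774316), went from 63.4 and 70.0 to 1.29 and 1.38 CPM (-5.64 ± 0.18), and Rspo2, a secreted Wnt agonist, from 90.6 and 86.5 to 4.89 and 2.56 CPM (-4.57 ± 0.22). The thyroid hormone activating enzyme Dio2 (62.5 and 69.0 to 2.08 and 1.86 CPM, -5.06 ± 0.15), the neurotrophin receptor Ntrk3 (-4.07 ± 0.24) and the aminopeptidase Enpep (139 and 153 to 9.79 and 7.57 CPM, -4.07 ± 0.10) fell likewise. Tmem252 (-5.12 ± 0.18) and Pgm5, a protein of cell-matrix junctions (-4.92 ± 0.12), are neighbours on chromosome 19 and fell by similar amounts. Colec10, a collectin (-5.20 ± 0.27), Cbr2, a carbonyl reductase (-3.79 ± 0.06), and Abi3bp, a matrix protein (-3.78 ± 0.09), complete the group with Ccn3.

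Over the whole Wnt list, Sfrp2 and Rspo2 included, 12 of 22 genes fell and 7 rose, with a median of -0.60. The receptors Fzd1 (225 and 226 to 94.4 and 79.0 CPM, -1.38 ± 0.06) and Fzd2 (-1.41 ± 0.09) and the secreted protein Dkk3 (849 and 853 to 343 and 340.2 CPM, -1.32 ± 0.05) fell. The inhibitor Wif1 rose from 0 counts to 9.85 and 5.54 CPM, at least 168-fold against the floor, the deacylase Notum, a feedback inhibitor, by 1.74 ± 0.20, the ligand Wnt4 by 2.39 ± 0.34 and the signal transducer Ctnnb1 by 0.41 ± 0.04. Of 25 BMP and TGF-beta genes 11 rose and 9 fell. The target genes Id1 (23.8 and 26.3 to 115 and 122 CPM, 2.24 ± 0.07) and Smad7 (1.91 ± 0.07) rose, as did the ligand Tgfb1 (1.07 ± 0.06) and the antagonist Grem1 (0.83 ± 0.05). The receptor Tgfbr2 (387 and 391 to 144 and 138 CPM, -1.46 ± 0.05), the ligands Tgfb2 (-1.31 ± 0.10) and Bmp4 (-1.83 ± 0.14) and the antagonist Fst (-0.75 ± 0.08) fell.

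Growth factor and bone-resorption signals also changed. The growth factor Igf1 went from 58.8 and 59.9 to 8.32 and 6.84 CPM (-2.97 ± 0.11, edgeR adjusted p = 3.66e-20) and its carrier Igfbp5 from 878 and 915 to 209 and 172 CPM (-2.23 ± 0.20), while the carriers Igfbp7 (1.32 ± 0.05) and Igfbp4 (0.69 ± 0.06) rose. Over that list 3 of 9 rose and 4 fell. Tnfrsf11b, osteoprotegerin, the decoy receptor that limits osteoclast formation, went from 59.1 and 56.5 to 15.6 and 20.2 CPM (-1.69 ± 0.10), and the osteoclast inhibitor Sema3a changed by -1.42 ± 0.06. Il34, a ligand of the CSF1 receptor that supports osteoclast precursors, rose from 9.57 and 11.0 to 41.2 and 43.1 CPM (2.03 ± 0.10). Over the 8 osteoclast-regulating signals tested, 2 rose and 4 fell, and the cytokines Csf1 (0.09) and Il6 (-0.20) were not called. Tnfsf11, which codes for RANKL, did not pass the filter on low counts. Of 9 Notch genes 4 rose and 4 fell: the ligand Jag1 rose (0.89 ± 0.06) and the receptor Notch3 fell (-1.03 ± 0.07).

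Contractile genes fell nearly as a group. Of 17 smooth muscle and contractile genes tested, 14 fell, 11 at least 2-fold, and 1 rose, with a median of -1.25. Myl9, the regulatory myosin light chain (chromosome 2, 156775420 to 156781658), went from 172 and 178 CPM to 11.4 and 13.7 CPM at day 14 and 18.5 and 19.9 CPM at day 21 (-3.19 ± 0.08, edgeR adjusted p = 8.77e-25). The focal adhesion protein Vcl (423 and 439.5 to 154 and 161 CPM, -1.45 ± 0.05), the actin cross-linker Flna (3301 and 3309 to 1362 and 1423 CPM, -1.25 ± 0.04) and the tropomyosin Tpm2 (-1.57 ± 0.06) fell. Acta2, the actin of myofibroblasts, singled out after its values were seen, went from 3006 and 3027 to 244 and 269.7 CPM (-3.55 ± 0.07). Des, desmin, rose at a low level, from 4.23 and 3.48 to 9.76 and 12.1 CPM (1.5 ± 0.19).

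Markers of other cell types gave the following levels, summed over each set of markers. The sums were scaled by plain library totals and the single-gene CPM by TMM library sizes. The 2 scales differ slightly, and a member can exceed its sum. Of 8 macrophage and osteoclast markers the sum was 203.7 to 215 CPM at day 0 and 457.3 to 497 CPM at day 21, nearly all of it the protease Ctsk (198 and 212 to 496 and 460.4 CPM), which fibroblasts and osteoblasts can also express; 2 markers passed the filter on low counts, both rose, and Tyrobp was at 0 counts. Myeloid genes that are also interferon targets or widely expressed rose from low levels, Mpeg1 from 0.618 and 0.367 to 9.52 and 8.49 CPM and Cd68 from 1.88 and 1.64 to 7.59 and 8.87 CPM, while the lysozyme gene Lyz2 fell from 27.4 and 29.1 to 5.98 and 5.6 CPM. The 7 adipocyte markers summed to 14 to 15.3 CPM at day 0 and 40.6 to 53 CPM at day 21, with the fatty acid carrier Fabp4 going from 0.865 and 0.989 to 26.3 and 40.8 CPM and Plin1 at 0 counts. Most of the day 0 sum was Cebpa (410 and 503 counts), which was not called. On the longer adipocyte list 3 of 7 tested genes rose and 3 fell (Plin4, Dgat2 and Cd36), with a median of 0.003. The 6 chondrocyte markers summed to 119 to 130 CPM and 302 to 339 CPM, mostly Sox9. The 7 endothelial and epithelial markers summed to at most 5.51 CPM at either day and the 4 lymphocyte markers to at most 0.662 CPM, with Cd3e and Ms4a1 at 0 counts. The 5 fibroblast and tendon markers summed to 2435 to 2449 CPM at day 0 and 627 to 687 CPM at day 21. That drop was mostly Col3a1 and Dcn, while Pdgfra rose (8069 and 8587 to 14382 and 13358 counts) and Scx was not called. The 7 osteoblast markers summed to 8593 to 8986 CPM and 14740 to 15340 CPM. Most of that increase was Spp1 (73599 and 82905 to 464384 and 487663 counts), while Col1a1 fell (195326 and 229131 to 40286 and 41953 counts). Of these 7 markers 4 rose and 1 fell, and Runx2 and Bglap were not called. In bulk RNA, fewer cells of a type and less RNA per cell cannot be told apart, and the part of cell mixture in the changes above was not tested.

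Glucocorticoid-responsive genes rose as strongly as any list after the interferon-stimulated one. Of 16 tested, 13 rose, each at least 2-fold, and 2 fell, with a median of 2.31. Fkbp5, a chaperone of the glucocorticoid receptor (chromosome 17, 28399094 to 28517527), went from 37.0 and 34.1 CPM to 506 and 530.0 CPM, 14.6-fold (3.87 ± 0.06, edgeR adjusted p = 2.85e-30). The kinase Sgk1 went from 112 and 111 to 1098 and 1105 CPM (3.31 ± 0.05), and Tsc22d3, the leucine zipper protein GILZ, from 49.3 and 45.6 to 413 and 370.5 CPM (3.05 ± 0.06). The metal-binding Mt1 rose by 2.43 ± 0.05, and Zbtb16, above, is on this list too. The receptor gene itself, Nr3c1, fell from 309.7 and 331 to 90.8 and 93.0 CPM (-1.80 ± 0.05, edgeR adjusted p = 1.16e-22), and the phosphatase gene Dusp1 fell. The control arm showed the same list at a median of 2.40 with 12 members higher and 1 lower, where 3.82% of all genes were higher and 2.63% lower. The list thus rose without IFN as well.

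Complement and acute-phase genes split. Of 21 tested, 10 rose, all at least 2-fold, and 8 fell. The complement gene C4b went from 7.51 and 6.92 to 174 and 157 CPM (4.52 ± 0.07, edgeR adjusted p = 2.94e-29), and Lcn2, an iron-siderophore binding protein, from 4.85 and 4.44 to 93.5 and 87.5 CPM (4.29 ± 0.09). C1s1 and C1ra, proteases of the first complement component that lie side by side on chromosome 6, fell by 2.69 and 1.33 on the log2 scale, and the serum amyloid gene Saa3 changed by -1.96 ± 0.13. Among 21 inflammatory genes 12 rose and 5 fell. The T cell chemokine Cxcl10 went from 9.08 and 7.38 CPM to 128 and 136 CPM at day 14 and 70.7 and 66.0 CPM at day 21 (3.06 ± 0.09), and Lif (1.35 ± 0.08) and Ccl2 (0.87 ± 0.07) rose. The stromal chemokine Cxcl12 went from 441 and 465 to 109 and 94.0 CPM (-2.15 ± 0.06) and the adhesion gene Vcam1 from 323 and 336 to 95.8 and 87.7 CPM (-1.84 ± 0.05).

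Defence against oxidation rose too. Of 19 iron, ferritin and NRF2 genes 15 rose, 10 at least 2-fold, and 3 fell, with a median of 1.08. The glutathione synthesis genes Gclc (199.9 and 192 to 1243 and 1176 CPM, 2.63 ± 0.05) and Gclm (2.02 ± 0.05), the haem oxygenase Hmox1 (113 and 114 to 562 and 568 CPM, 2.32 ± 0.05) and the extracellular superoxide dismutase Sod3 (1.81 ± 0.06) rose most clearly, each with groups far apart. Of 26 p53 and cell death genes 16 rose and 5 fell, among them the survival genes Bcl2l1 (46.3 and 51.2 to 201 and 205 CPM, 2.06 ± 0.06) and Bcl2 (-1.23 ± 0.11) in opposite directions. The p53 ligase Mdm2 (1.56 ± 0.05) and the inflammatory caspase Casp4 (2.22 ± 0.09) rose.

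Lists of basic cell functions moved little in size even where many members were called. Of 38 cell cycle genes 15 fell and 2 rose, none by 2-fold, with a median of -0.24. The cyclins Ccnd1 (1164 and 1217 to 829.9 and 885 CPM, -0.47 ± 0.05) and Ccnd2 (-0.57 ± 0.05) fell. Of 25 ribosomal protein genes 18 rose and 0 fell, again none by 2-fold, with a median of 0.32. Of 26 oxidative phosphorylation genes 5 rose and 10 fell, none by 2-fold. Of 22 endoplasmic reticulum stress genes 17 rose, but Ddit3, the stress-induced factor CHOP (70.3 and 69.8 to 239.5 and 231 CPM, 1.75 ± 0.05), was the 1 that rose at least 2-fold, and Chac1 (-1.21 ± 0.09) the 1 that fell as much. Of 27 glycolysis and hypoxia genes 13 rose and 6 fell: Hk2, the inducible hexokinase (58.8 and 64.4 to 247 and 241 CPM, 1.98 ± 0.06), and Vegfa (1.83 ± 0.05) rose and Hif1a fell (-0.55 ± 0.05). Of 26 lipid synthesis genes 8 rose and 9 fell, the elongase Elovl6 by most (189 and 205 to 30.4 and 30.8 CPM, -2.69 ± 0.07).

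Immediate early genes followed a course with a low at day 14. Fos stood at 362 and 404 CPM at day 0, 10.4 and 8.20 CPM at day 14 and 119 and 125 CPM at day 21, for a change of -1.65 ± 0.07 (edgeR adjusted p = 1.78e-13). Jun went from 573 and 646 to 148 and 151 and then 287 and 294 CPM (-1.07 ± 0.05). Both were called higher at day 21 than at day 14, and both remained below day 0. Their relative Fosl1 rose instead, from 13.5 and 15.0 to 93.1 and 82.1 CPM (2.62 ± 0.08), as did Myc (1.04 ± 0.06). In all 12 of 26 members of the immediate early and heat shock list rose and 10 fell.

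**Figure D4:**
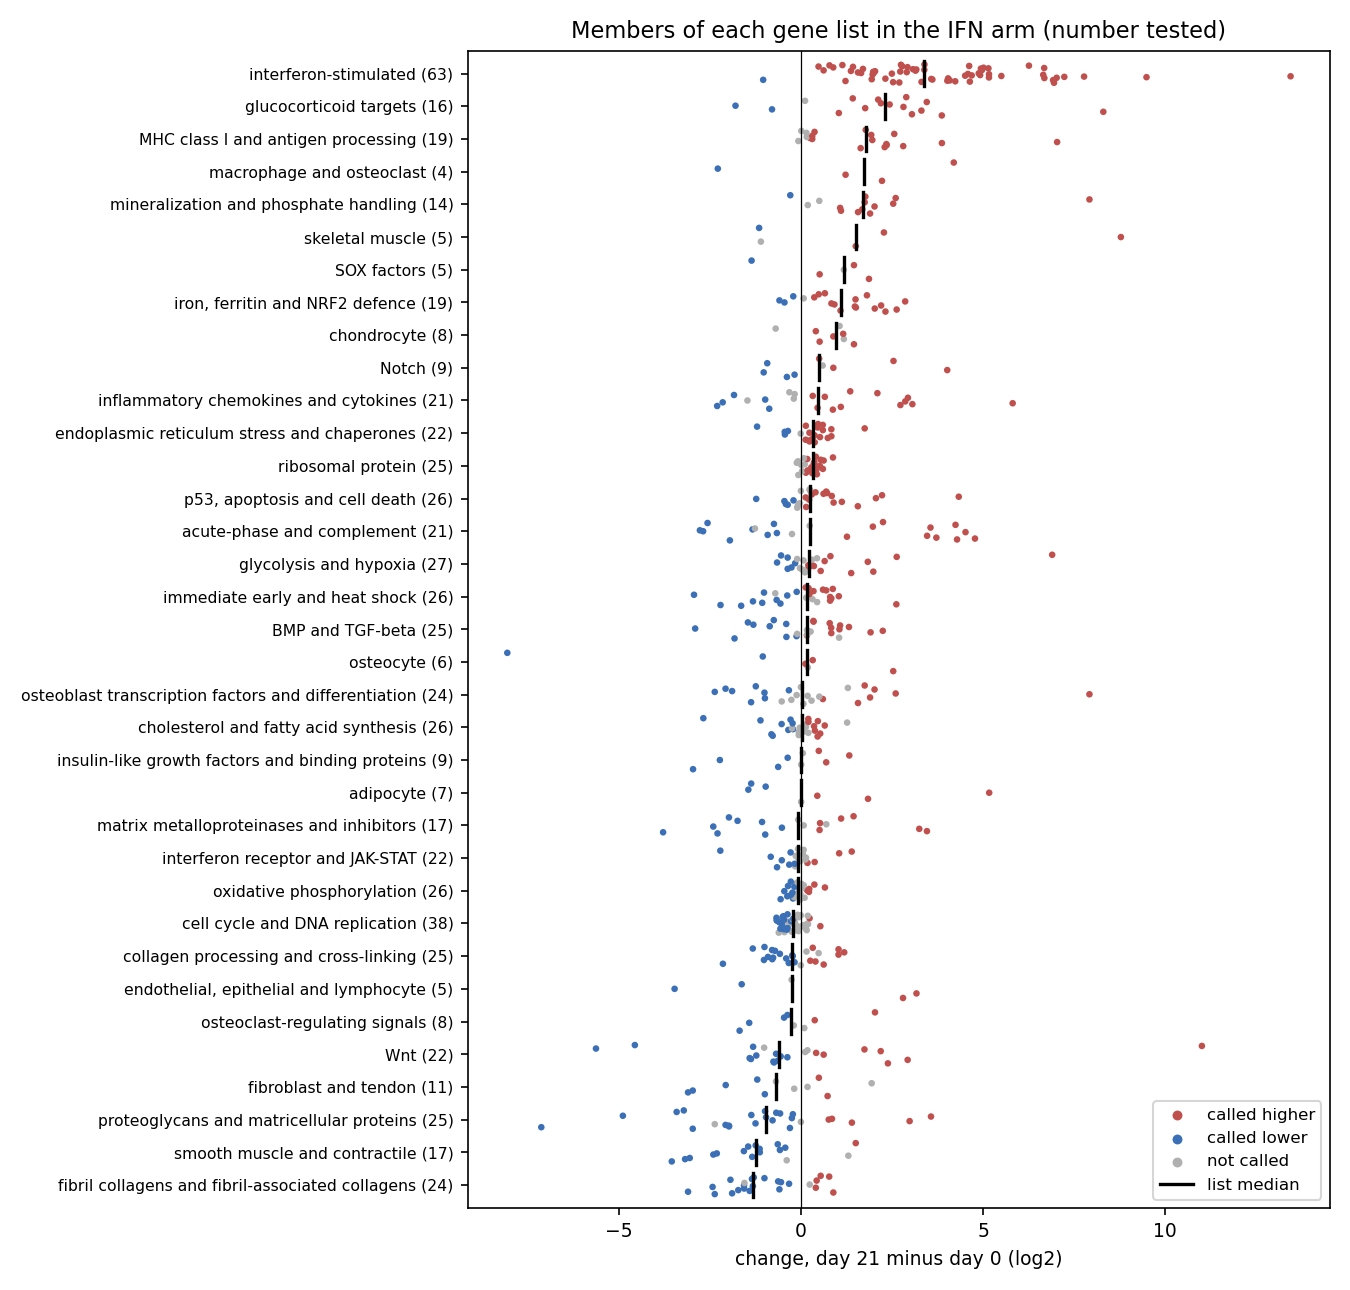
Change from day 0 to day 21 (log2) of every tested member of 35 gene lists in the interferon arm, 1 point per gene, red where called higher, blue where called lower and grey otherwise, with a black bar at each list's median and lists in order of that median. Interferon-stimulated genes (median 3.39) and glucocorticoid targets (2.31) lie at the top, and contractile genes (-1.25) and collagens (-1.31) at the bottom.

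The control arm over the same interval asks which of these changes also took place without IFN. It was fitted with all 12 libraries, where the wider spread of the control libraries sets the limits: 1114 of 17289 genes were called (6.44%), 660 higher and 454 lower. The difference of the change, interferon arm minus control arm, was called for 16 genes (0.0925%), 15 in the direction of a greater rise or smaller fall with IFN (0.0868%) and 1 in the other, and 1426 genes had an unadjusted p below 0.05. With limma voom and separate weights for the 2 arms 78 genes were called (0.451%). At day 0 the 2 arms differed for 1 gene (0.00578%), Bpifc, with 381 at an unadjusted p below 0.05, and 0 of the 63 interferon-stimulated genes, 1 of which had an unadjusted p below 0.05. Over those 63 genes the median day 0 difference was 0.46 (log2, interferon minus control), with median levels of 15.8 and 12 CPM in the interferon arm and 7.45 and 10.2 CPM in control in the same fit.

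Of the 16, 5 are on the interferon-stimulated list and 2 on the antigen presentation list, while others, such as Mndal and Ly6e, are on neither. Mndal changed by 4.19 in the interferon arm and by 0.73 ± 0.21 in control, where it went from 25.1 and 22.2 to 40.0 and 38.7 CPM, a difference of 3.45 ± 0.30 (edgeR adjusted p = 0.00448). Irf7 was at 2.83 and 2.70 CPM in control at day 0 and 13.7 and 10.7 CPM at day 21, so it rose in that arm also (2.14 ± 0.35, edgeR adjusted p = 0.0084), and the difference was 4.79 ± 0.49 (edgeR adjusted p = 0.00561). Ly6e, an interferon-stimulated surface protein, went from 176 and 172 to 1568 and 1724 CPM with IFN and from 277 and 174 to 343 and 266 CPM in control (difference 2.80 ± 0.34, edgeR adjusted p = 0.0128). The nuclear body gene Sp100 (3.13 ± 0.39), the apoptosis-linked Xaf1 (2.59 ± 0.38), Phf11d (4.29 ± 0.60), H2-T22 (2.06 ± 0.28) and B2m (1.95 ± 0.28) had control changes within 0.62 of 0 and differences with edgeR adjusted p from 0.0171 to 0.0387. Over the whole interferon-stimulated list the median change was 3.39 with IFN and 0.79 in control, where 20 members were called higher and 2 lower; 5 members were called for the difference by edgeR and 29 by voom.

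Tnn, tenascin-W, an extracellular protein of bone-forming tissue (chromosome 1, 160085029 to 160153580), was the 1 gene called in the other direction. It went from 2.19 and 2.71 to 25.3 and 13.6 CPM in the interferon arm and from 1.42 and 1.96 to 293 and 443 CPM in control. It therefore rose in both arms, by 2.98 ± 0.34 and by 7.75 ± 0.40, and the difference was -4.78 ± 0.47 (edgeR adjusted p = 0.00561), which voom did not call (0.15). Ifitm1, an interferon-induced membrane protein, was not called with IFN (128 and 136 to 129 and 146 CPM, 0.06 ± 0.06) and fell in control from 95.1 and 143 to 28 and 18.7 CPM. Bpifc was the gene already apart at day 0, with 0 counts in the interferon arm and 0.985 and 0.831 CPM in control, and reached 6.77 and 6.84 CPM and 6.18 and 8.70 CPM at day 21.

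**Figure D5:**
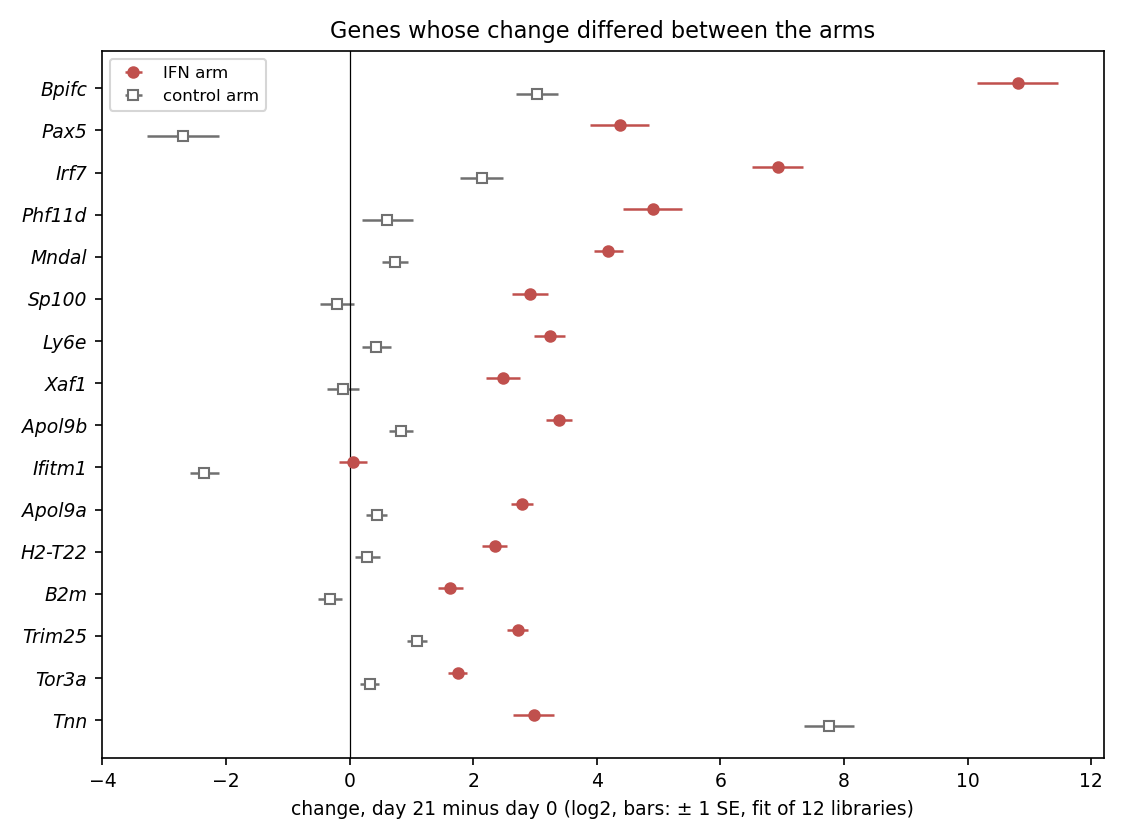
Change from day 0 to day 21 (log2 ± 1 SE, fit of 12 libraries) in the interferon arm (red circles) and the control arm (open grey squares) for the 16 genes whose change differed between the arms, ordered by the difference. Tnn, at the bottom, is the 1 gene with the larger rise in control; Ifitm1 lies near 0 with IFN and below 0 in control.

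Collagens differed in the point estimates without passing the edgeR test. Col1a1 was at 2574 and 5956 CPM in control at day 0 and 9729 and 5107 CPM at day 21, a change that was not called (0.80 ± 0.41, edgeR adjusted p = 0.242), and the difference from the interferon arm was -3.18 ± 0.59 (edgeR adjusted p = 0.104; voom 0.00568). Over the 24 collagens the median was -1.31 with IFN and 0.53 in control; for the difference edgeR called 0, with 13 at an unadjusted p below 0.05, and voom 8, all lower with IFN, where it called 0.0694% of all genes lower. Sparc (difference -1.18 ± 0.24, edgeR adjusted p = 0.146; voom 0.0152) and Col5a2 (-1.86 ± 0.30, 0.0619; voom 0.00193) showed the same split between tools. Sox9 was at 174 and 106 CPM in control at day 0 and 173 and 152 CPM at day 21, and its difference of 1.24 ± 0.32 was not called (edgeR adjusted p = 0.323; voom 0.118). For Spp1 the difference was 0.90 ± 0.40 (0.592), for Alpl -1.57 ± 0.95 (0.683), for Runx2 0.39 ± 0.30 (0.744) and for Dmp1 3.38 ± 1.45 (0.585), the last with control replicates at 26.2 and 86.5 CPM at day 0 and 56.1 and 6.11 CPM at day 21.

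Of the 12 largest falls described above, 8 were called lower in control as well, where 2.63% of all genes were. Ccn3 went from 382 and 1962 to 89.7 and 43.2 CPM in control (-4.14 ± 0.66, edgeR adjusted p = 0.00775), Slc26a7 changed by -5.45 ± 0.77, Sfrp2 by -5.81 ± 0.98 and Cbr2 by -2.36 ± 0.24 there, and the edgeR adjusted p of the difference was 0.222 or more for all 12; voom called Cbr2 (-1.43 ± 0.33 by edgeR, voom adjusted p = 0.0286). The 12 largest rises, too, were not among the 16 genes that edgeR called for the difference. With the wide spread of the control libraries, the lack of a call does not tell whether these genes also rose in control. Low day 0 values in control came from replicate 1 for Ccn3, Sfrp2, Dio2 (5.66 against 60 CPM) and Fos (2.22 against 407 CPM). At day 21 control replicate 2 carried high values of stress genes, with Ddit3 at 1458 against 93.9 CPM and Hmox1 at 8577 against 277 CPM in replicate 1. Without both of these control libraries the difference was called for 153 genes, and the edgeR adjusted p was 0.0826 for Irf7, 0.0782 for Sp100 and 0.192 for Phf11d, while Mndal, Ly6e, Xaf1 and Tnn stayed below 0.05. Other settings ended other calls. Without any 1 of the day 0 and day 21 interferon libraries Ly6e (edgeR adjusted p from 0.0633 to 0.145), Xaf1 (0.187 to 0.315), Sp100 (0.081 to 0.161) and Phf11d (0.134 to 0.345) lost theirs. Xaf1 and Phf11d also lost the call without either day 14 interferon library (0.0882 to 0.105), Phf11d without control day 21 replicate 2 (0.129), and Sp100 and Phf11d without control day 0 replicate 1 (0.0533 each). With only the 8 libraries of days 0 and 21 Ly6e and Xaf1 stood at 0.0957. Irf7, Mndal and Tnn kept the call in each fit that left out 1 library. Leaving out single libraries moved the number of calls between 3 and 2369, the latter without control day 21 replicate 1, when that group was replicate 2 alone.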

How the data were processed

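Libraries of MC3T3-E1 RNA were aligned with HISAT2 to mm10 and counted with featureCounts, with SAMtools also used, per the submitters' processing notes; versions, annotation and the use of strand are not given in the sources used here. The deposited table holds whole-number counts per gene symbol, 12 columns, made by the authors without normalization. Of 55291 symbols, 53292 matched GENCODE M21, which gave positions, and 37 mitochondrial symbols had 0 counts in every library. Promoter windows came from RefSeq on GRCm38.p6.

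Counts were tested with edgeR 4.0.16 in R 4.3.3 (TMM, filterByExpr, robust quasi-likelihood F test, 1 mean per group, Benjamini-Hochberg adjustment over all genes kept). The interferon arm was fitted on its 6 libraries with 3 residual degrees of freedom. The control arm, the difference between arms and the day 0 comparison were fitted on all 12 libraries with 6. CPM used TMM library sizes, separately in each fit, except that the sums over cell type markers used plain library totals. Alternatives were DESeq2 1.42.0, limma 3.58.1 (voom with a weight per arm), other scalings, filters and sets of libraries, and each library left out in turn. Library totals of 29772425 to 38908453 counts set the counting precision; intervals and the floor of 3 counts cover counting error only.

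The gene lists and members were chosen with earlier results of these data known. Named genes were the 12 highest and 12 lowest changes among genes whose groups did not overlap and whose log2 CPM averaged 1 or more (unnamed and predicted genes passed over), up to 4 called members of each list in each direction by smallest p, the 6 highest and lowest differences between arms, and Alpl, Bglap, Col1a1, Runx2, Sp7, Sox9 and the receptor genes Ifnar1 and Ifnar2. Acta2, Lum, Csf1, Il6, Ifit3, Ibsp, B2m, Bglap2, Bglap3, Ptpn6, the other genes called for the difference (Bpifc, Pax5, Apol9a, Apol9b, Ifitm1, Tor3a, Trim25) and the members and neighbours of the Ifi200 locus were named after their values were seen.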

Additional observations from a re-analysis of the deposited data

Results flagged for a closer look

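For 16 genes the change from day 0 to day 21 differed between the arms in the edgeR test of the difference itself (log2, interferon minus control). Antiviral and interferon-linked genes with the larger rise with IFN were Irf7 (4.79), Phf11d (4.29), Mndal (3.45), Sp100 (3.13), Ly6e (2.8), Xaf1 (2.59), Apol9b (2.56), Apol9a (2.35), Trim25 (1.62) and Tor3a (1.43), together with the antigen presentation genes H2-T22 (2.06) and B2m (1.95). Apol9a and Apol9b are close copies whose reads may have been split.

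The remaining 4 followed other courses. Pax5, a B cell transcription factor, differed by 7.06; it was at 0.616 and 0.705 CPM in control at day 0 and fell there, and voom did not call it (adjusted p = 0.313). Bpifc differed by 7.78 and had 0 counts at day 0 in the interferon arm, so its fitted size depends on the prior count. Ifitm1 differed by 2.4 through its fall in control, and Tnn by -4.78 through its larger rise in control.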

How the results depend on the processing

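For day 21 against day 0 in the interferon arm, the 8567 calls became 2691 with a change of at least 2-fold required and 1762 with the spread taken from all 12 libraries; leaving out each library gave 7210 to 8402. Of 3482 values of 249 named genes under the alternatives, 3322 stayed on their side of the threshold, 159 lost the call, 1 gained it (Ifnar2) and 0 changed direction. Counted by gene, 124 of the 249 stayed on their side in every alternative, among them Bst2, Col1a1, Spp1 and Sox9. Alpl, Dmp1, Hmox1, Ddit3, Fos and Serpinh1 were among the genes that lost the call in 1 alternative. For the difference between arms, the 16 calls became 181 with DESeq2, 605 with no filter on low counts, 6 with only the 8 libraries of days 0 and 21, 78 with voom and 153 without both outlying control libraries, an alternative chosen after seeing the data. Leaving out each library gave 3 to 2369: among control libraries, omitting replicate 1 of day 21 gave 2369, replicate 2 of day 21 gave 48, replicate 2 of day 0 gave 85 and the day 14 replicates gave 39 and 38; the counts were 9 when either day 14 interferon library was omitted, 6 without interferon day 21 replicate 1, and 3 without interferon day 21 replicate 2 or either day 0 interferon library. For the control arm, the 1114 calls became 2551 with DESeq2, 2775 with no filter, 49 with only the 6 control libraries and 2033 without both outlying libraries; leaving out each library gave 550 to 5762, with 550 and 702 without day 0 replicate 1 or 2 and 5762 without day 21 replicate 1. The cause of these shifts was not tested. With the replicate number as a block, the calls were 8641, 12 and 819. Deviations of same-numbered interferon libraries correlated at 0.0186, 0.0122 and -0.011, so no shared replicate effect was seen over all genes. Whether the numbers pair cultures is not known from the labels. With 2 libraries per group, a lone library left in a group was assumed to vary like the others.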
